A study of Mus musculus with 8 samples.

Results

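Genes that display peptides on MHC class I were examined in mouse CD11c positive cells: the heavy chains H2-K1 and H2-D1, the light chain B2m, the peptide transporter genes Tap1 and Tap2, the loading factor Tapbp, the immunoproteasome subunits Psmb8, Psmb9 and Psmb10, and the trimming peptidase Erap1. The 10 genes were chosen by symbol, as the textbook core of the pathway, out of 11756 symbols in the deposited table. The table used here holds 9 of them, and Tap2 is not among its rows. All 9 reached the filter on low values, a signal of at least 10 in at least 4 libraries, as did 10091 genes in all.

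The study asked how such cells respond to acLDL, low density lipoprotein whose protein has been acetylated so that scavenger receptors bind and internalise it. All 8 libraries came from bone marrow of C57BL/6 mice, with no other allele named. CD11c positive cells were obtained by flow cytometry and cultured, and on day 6 they received acLDL or no treatment for 24 h. There were 4 libraries in each group, and the labels give no age and do not tie the libraries of a group to different mice or dishes, so each p-value rests on differences among the libraries of a group, which may be technical. In a bulk library, fewer cells of a type and less RNA per cell cannot be told apart.

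MHC class I molecules show fragments of proteins made inside the cell to cytotoxic T cells. Proteasomes cut the proteins, the TAP transporter moves the peptides into the endoplasmic reticulum, tapasin and chaperones load them onto a heavy chain paired with beta-2 microglobulin, and Erap1 trims those that are too long. Interferon gamma induces the immunoproteasome subunits, which take the place of the catalytic subunits of the ordinary proteasome. Dendritic cells hold much of this machinery before any stimulus, and some of them also load peptides from material they have engulfed, which is called cross-presentation.

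Most of these genes lie in the MHC on chromosome 17 (GRCm38). Tapbp spans 33915899 to 33929292 on the plus strand, H2-K1 33996017 to 34000347 on the minus strand, and H2-D1 35262730 to 35267499 on the plus strand. Between them stand Psmb9 (34181987 to 34187764, minus strand), Tap1 (34187553 to 34197225, plus strand), Psmb8 (34197721 to 34201454, plus strand) and Tap2 (34203527 to 34216321, plus strand), so that Psmb9 and Tap1 run apart from a shared start region. B2m is on chromosome 2 (122147686 to 122153083, plus strand), Psmb10 on chromosome 8 (105935735 to 105938444, minus strand) and Erap1 on chromosome 13 (74639568 to 74693201, plus strand). All are annotated as protein-coding.

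Stretches before the RefSeq start sites of the heavy chains, the light chain and the Tap1 and Psmb9 pair are shown. These genes were low in the same acLDL libraries (2 and 3), as were genes outside the pathway such as Itgax. Whether the promoters had a part in that was not tested. The stretches were read from RefSeq promoter windows (GRCm38.p6), which matched 9 of the 10 genes, and Tap2 was not matched. Some GENCODE transcripts of H2-D1 and Psmb9 start further upstream, so that the H2-D1 stretch and the Tap1 and Psmb9 stretch each overlap 1 annotated exon there and lie inside the gene spans given above; those of H2-K1 and B2m overlap none. Capitals mark letters of 4 searched motifs, on either strand: the core of the interferon-stimulated response element (GAAA, any 2 bases, GAAA), the gamma-activated site (TTCNNNGAA), the kappa B site, and the cyclic AMP response half-site (TGACG).
H2-K1, chr17:34000348-34000597, minus strand: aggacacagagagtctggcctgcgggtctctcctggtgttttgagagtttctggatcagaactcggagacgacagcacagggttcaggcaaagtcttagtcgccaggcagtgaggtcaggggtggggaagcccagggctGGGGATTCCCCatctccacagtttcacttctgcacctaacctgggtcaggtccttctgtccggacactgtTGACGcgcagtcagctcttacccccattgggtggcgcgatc
B2m, chr2:122147437-122147685, plus strand: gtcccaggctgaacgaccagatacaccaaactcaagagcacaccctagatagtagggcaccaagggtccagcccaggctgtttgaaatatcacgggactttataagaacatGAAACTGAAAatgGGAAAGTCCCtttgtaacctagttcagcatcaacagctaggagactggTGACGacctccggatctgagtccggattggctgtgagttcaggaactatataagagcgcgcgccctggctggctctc
H2-D1, chr17:35262916-35262945, plus strand: cagggctGGGGATTCCCCatctcctcagtt
Tap1 and Psmb9, chr17:34187463-34187487, plus strand: agacaggTGACGacagagggtcctg

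The H2-K1, H2-D1 and B2m windows held kappa B letters, against 8.18% of 27025 promoter windows, and overlapping matches on the palindrome of the heavy chains count as 1 window. The half-site TGACG was in the windows of 5 members (H2-K1, H2-D1, B2m, Tap1 and Psmb9, the last 2 sharing 1 match), against 21% of windows. The interferon-stimulated element was matched in B2m and Erap1, against 3.49% of windows, and the gamma-activated site in Psmb8, against 8.47%. These are matches of letters and not measured sites.

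All 9 measured genes had a lower mean log2 value with acLDL, and none passed the test. On the scale of log2(normalized signal + 5), the median fold change of the 9 was -1.55, against -0.13 over all tested genes, of which 55.7% had a lower mean. With limma and Benjamini-Hochberg adjustment over 10091 genes, 0 of the 9 had an adjusted p under 0.05, and percent called over all genes was 0%. At an unadjusted p under 0.05, 3 were lower (H2-K1, H2-D1 and Tapbp), against 8.93% of all tested genes. For none of the 9 were the groups apart without overlap, against 5.64% of all tested genes in either direction.

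The libraries of a group differed from each other. Of the 9 genes, acLDL library 1 fell inside the control range for 8 and above every control for Psmb8. Both acLDL library 2 and acLDL library 3 lay below every control for 8 genes, and acLDL library 4 for 6. Control library 1 was the lowest control for 8 genes. Over all tested genes, the library most like acLDL library 1 by Spearman correlation was control library 3 (0.95), and the one most like acLDL library 4 was control library 1 (0.89).

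**Figure D1:**
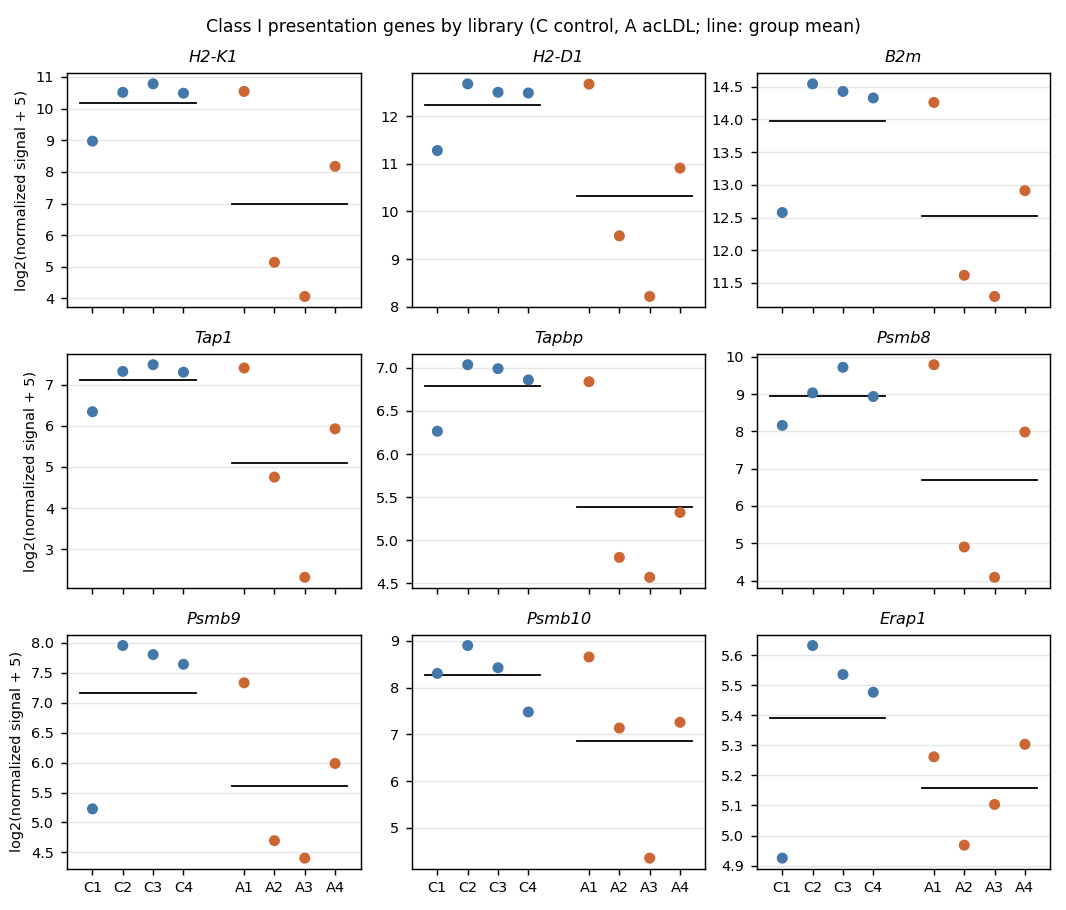
Each panel plots log2(normalized signal + 5) of 1 gene in the 4 control libraries (C1 to C4, blue) and the 4 acLDL libraries (A1 to A4, orange), with a line at each group's mean and an axis of its own. In all panels but Erap1, A2 and A3 lie below every control, while A1 lies among or above the controls in all 9.

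H2-K1, one of the classical heavy chains, showed the widest range. Its normalized signal was 1487, 30.3, 11.7 and 284 in acLDL libraries 1 to 4, and 497, 1457, 1755 and 1429.7 in control libraries 1 to 4. The highest library stood 149.7-fold above the lowest, and only acLDL library 1 reached the upper controls. The acLDL mean was 453 ± 700.1 (SD, n = 4) and the control mean 1285 ± 545. That gave a log2 fold change of -3.21 (SE 1.27, 95% interval -6.08 to -0.33) with limma's adjusted p = 0.298.

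The second heavy chain, H2-D1, was at 6515, 713, 293 and 1918 with acLDL and at 2478, 6539.6, 5785 and 5729 in controls. Here acLDL library 4 fell short of every control, and acLDL library 1 lay just under the highest. H2-D1 had a log2 fold change of -1.91 (SE 0.84, 95% interval -3.82 to -0.01; limma's adjusted p = 0.298). Levels of both heavy chains are uncertain because they share sequence. Of the 31-base words in the last 500 nt of their coding transcripts, 24.4% of those of H2-K1 and 27.2% of those of H2-D1 also occur in another gene, for 18.7% and 12.7% in each other. Words in common were 0% for B2m, Psmb8, Psmb9 and Psmb10, 8.1% for Tapbp, 4.7% for Tap1 and 1.5% for Erap1.

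B2m, the light chain that every class I molecule needs to reach the surface, was at 19615, 3136, 2505 and 7699 with acLDL. In controls it was at 6106, 23890.2, 22045 and 20579. The 3 other controls stood within a narrow band, and control library 1 lay below acLDL library 4. Means were 8239 ± 7929 (SD, n = 4) and 18155 ± 8146, with a log2 fold change of -1.45 (SE 0.69, 95% interval -3.01 to 0.11; limma's adjusted p = 0.299).

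Tap1, which encodes one chain of the peptide transporter, was at 164, 21.99 and 55.8 in acLDL libraries 1, 2 and 4 and was listed at 0 in acLDL library 3. Its controls were at 76.0, 155, 174 and 153. A value listed at 0 may stand for a low estimate, since the table holds nothing between 0 and 5. The log2 fold change was -2.01 (SE 0.93, limma's adjusted p = 0.298).

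Tapbp encodes tapasin, which bridges the transporter and the empty class I molecule. It was at 109.5, 22.9, 18.7 and 35.0004 with acLDL and at 71.9, 126, 122 and 111 in controls. Tapbp had the smallest p of the 9 genes, and acLDL libraries 2, 3 and 4 were all below the lowest control. The log2 fold change was -1.41 with an SE of 0.50 and a 95% interval from -2.53 to -0.28 (limma's adjusted p = 0.298).

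Of the immunoproteasome subunits, Psmb8 varied most. It was at 881, 24.9, 11.99 and 248 with acLDL and at 282, 519.6, 839.7 and 485 in controls, so that the highest and the lowest library both belonged to acLDL. The log2 fold change came to -2.27 (SE 1.14, 95% interval -4.86 to 0.31; limma's adjusted p = 0.303).

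Psmb9 was at 156, 20.9, 16.2 and 58.3 with acLDL and at 32.5, 243, 218 and 195 in controls. Control library 1 lay between acLDL libraries 2 and 4, far from the 3 other controls. For Psmb9 the log2 fold change was -1.55 (SE 0.79, limma's adjusted p = 0.305). Tap1, its divergent neighbour, did not follow it in every library: in control library 1, Tap1 was above acLDL library 4, and Psmb9 was below it.

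Psmb10, which lies outside the MHC, was at 398, 136, 15.4 and 148 with acLDL and at 311, 473, 339 and 173 in controls. It was the member whose lowest control was library 4 and not library 1. The log2 fold change was -1.43 (SE 0.80, limma's adjusted p = 0.325).

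Erap1 differed least. The values were 33.4, 26.3, 29.4 and 34.5 with acLDL and 25.4, 44.6, 41.4 and 39.5 in controls, a range of 1.76-fold from the lowest to the highest library. Control library 1 was the lowest of all, and the log2 fold change was -0.23 (SE 0.31, 95% interval -0.94 to 0.47; limma's adjusted p = 0.659).

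Whether the genes passed the test rested on acLDL library 1. Without it, 6 of the 9 genes were lower past limma's threshold (H2-K1, H2-D1, B2m, Tap1, Tapbp and Psmb8), with percent called among all genes at 14.4% in that direction. In that fit the log2 fold change was -4.39 for H2-K1 (adjusted p = 0.025), -2.70 for H2-D1 (0.027), -2.03 for B2m (0.037), -2.78 for Tap1 (0.039), -1.89 for Tapbp (0.023) and -3.31 for Psmb8 (0.034). Psmb9, at -2.13 (0.063), Psmb10, at -2.03 (0.068), and Erap1, at -0.27 (0.594), did not pass. Groups were apart without overlap for 6 of the 9 genes once that library was left out, all lower, against 33% of all tested genes in either direction and 18.9% lower. Without control library 1 instead, this held for 4, all lower, against 15.3% and 7.33%. The fold changes shrank when acLDL library 3 was left out, to -0.59 for Psmb10, -1.08 for Tap1, -1.21 for H2-D1, -1.41 for Psmb8 and -2.23 for H2-K1. Without acLDL libraries 2 and 3 they ran from -0.83 for H2-K1 to -0.08 for Psmb8, with B2m at -0.38. Limma called none of the 9 without those 2, or without any single library other than acLDL library 1. With weights per library estimated by limma on all 8, it called 5 of the 9 as lower (H2-K1, H2-D1, B2m, Tapbp and Psmb9), against 12.9% of all tested genes.

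**Figure D2:**
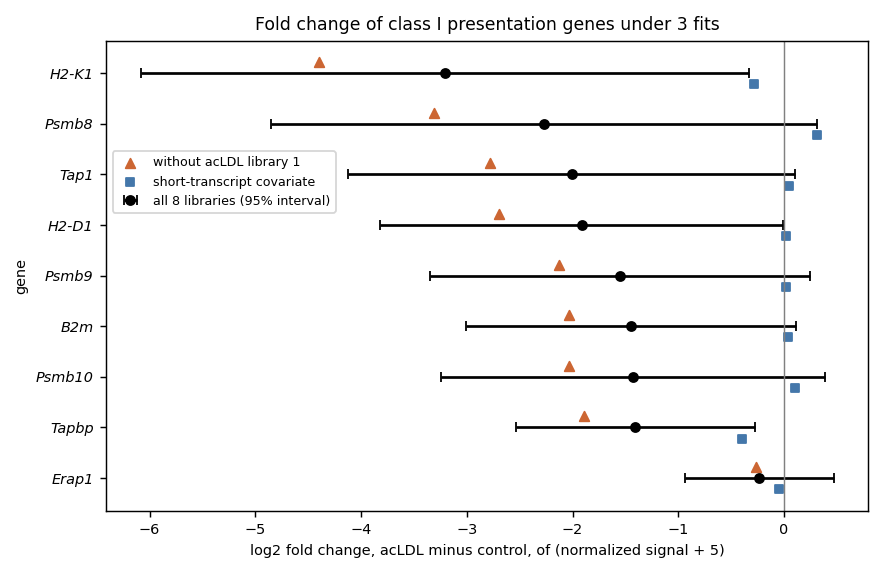
The x axis gives the log2 fold change of (normalized signal + 5), acLDL minus control, for the 9 genes on the y axis. Black points with bars are the fit on all 8 libraries with its 95% interval, and orange triangles the fit without acLDL library 1. Blue squares are the fit with an index of short transcripts as a covariate. Each triangle lies to the left of its own gene's black point, for Erap1 only slightly (-0.27 against -0.23), and squares lie between -0.40 and 0.31.

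Libraries also differed in how much signal short transcripts held, and the class I genes moved with that. An index was taken as the mean log2 deviation of tested genes with a longest transcript under 1000 nt, coding where the gene has one. The 9 genes were left out. In acLDL libraries 1 to 4 this index was 0.84, -1.09, -1.75 and -0.26. It was 0.07, 0.73, 0.86 and 0.60 in control libraries 1 to 4, which puts acLDL libraries 2, 3 and 4 under all 4 controls. With the index as a covariate, 3 of the 9 genes had a lower mean with acLDL, against 46.9% of all tested genes, and the median over the 9 was 0.02. The fold change was then -0.29 for H2-K1, -0.40 for Tapbp and -0.05 for Erap1, and turned to 0.02 for H2-D1, 0.04 for B2m, 0.05 for Tap1, 0.31 for Psmb8, 0.02 for Psmb9 and 0.11 for Psmb10. No gene passed limma's threshold in that fit. The index itself differed between the groups, and its part in the result and that of acLDL cannot be told apart.

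The class I genes are not all short. The longest coding transcript has 860 nt in B2m, 1311 in Psmb10, 1352 in Psmb9, 1619 in H2-K1, 1628 in Psmb8, 2102 in H2-D1, 2898 in Tapbp, 2953 in Tap1 and 5644 in Erap1. Over all tested genes, the median log2 fold change was -1.33 for transcripts under 1000 nt, -0.51 from 1000 to under 2000 nt, -0.15 from 2000 to under 3000 nt and 0.01 from 3000 nt. B2m and Erap1 lay between the quartiles of their length class. H2-K1, Psmb8, Psmb9 and Psmb10 lay below the lower quartile of theirs, which was -1.41. H2-D1, Tap1 and Tapbp lay below the lower quartile of theirs, which was -0.87.

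**Figure D3:**
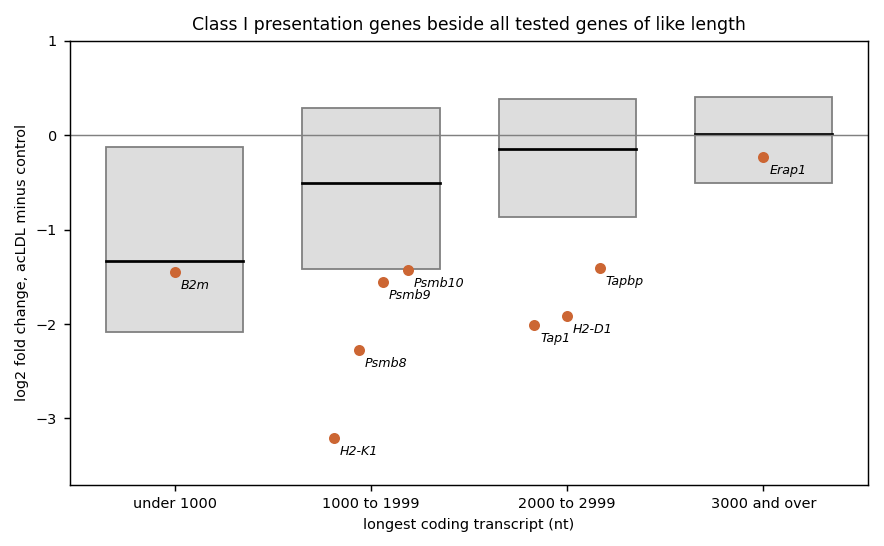
Grey boxes span the lower to the upper quartile of the log2 fold change, acLDL minus control, over all tested genes with a length. The 4 classes are of longest transcript, coding where the gene has one (x axis, in nt), with a line at the median. Orange points are the 9 class I genes, of which B2m and Erap1 lie inside their box, and H2-K1 lies lowest at -3.21.

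Position in the MHC was the other feature that most of the genes share. Between the start of Tapbp and the end of H2-D1, 41 other genes were tested, with a lower acLDL mean in 28 (68.3%, against 55.7% of all tested genes) and a higher one in 13. Their median log2 fold change was -0.45, and their median longest transcript had 1607 nt. Of all tested genes from 1000 to under 2000 nt, 65% had a lower mean, with a median of -0.51. For the 6 measured class I genes of that interval the values ran from -3.21 to -1.41, and for the 41 others from -3.45 (H2-Aa) to 1.45.

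Each immunoproteasome subunit takes the place of one constitutive subunit: Psmb8 that of Psmb5, Psmb9 that of Psmb6 and Psmb10 that of Psmb7. The constitutive genes did not move alike. Psmb5 was at 508, 52.1 and 169 in acLDL libraries 1, 2 and 4 and listed at 0 in acLDL library 3, against 321, 308, 337 and 363 in controls. Psmb7 was at 353, 5.05 and 32.2 and listed at 0 in the same library, against 26.3, 161, 293 and 290.2. Both were thus low in the acLDL libraries in which Psmb8, Psmb9 and Psmb10 were low.

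Psmb6 went the other way, at 2859, 6712, 8722 and 5523 with acLDL and 4129, 2539, 2939.8 and 2884 in controls. The fold change on the log2 scale was 0.84 (SE 0.33, limma's adjusted p = 0.298), and 0.15 with the short-transcript covariate. Its longest coding transcript has 798 nt, less than that of Psmb5 (899) or Psmb7 (1160). Of the 31-base words at their ends, Psmb5 shares 66.9% with other genes, most of them with Gm3375, Psmb6 15.5% and Psmb7 5.7%, so the level of Psmb5 is uncertain.

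The balance within each pair was compared over 3 pairs, as the log2 difference within a library. For Psmb8 minus Psmb5 the acLDL mean was 0.54 ± 1.12 (SD, n = 4) and the control mean 0.57 ± 0.62, a difference of -0.03 (two-sided exact permutation p = 1, and 1 after Benjamini-Hochberg adjustment over the 3 pairs). For Psmb9 minus Psmb6 it was -6.83 ± 2.01 and -4.43 ± 1.58, a difference of -2.40 (exact permutation p = 0.114, adjusted 0.343). For Psmb10 minus Psmb7 it was 2.01 ± 1.48 and 1.09 ± 1.76, a difference of 0.93 (exact permutation p = 0.429, adjusted 0.643). The groups overlapped in every pair, and none of the 3 balances passed the threshold for adjusted p. The smallest p that the 70 assignments allow is 0.029. A single pair at that p, with the others higher, would still miss the threshold after adjustment over the 3 pairs. The test therefore could not decide whether 1 balance alone differed, and no conclusion is drawn from it for Psmb9 minus Psmb6.

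**Figure D4:**
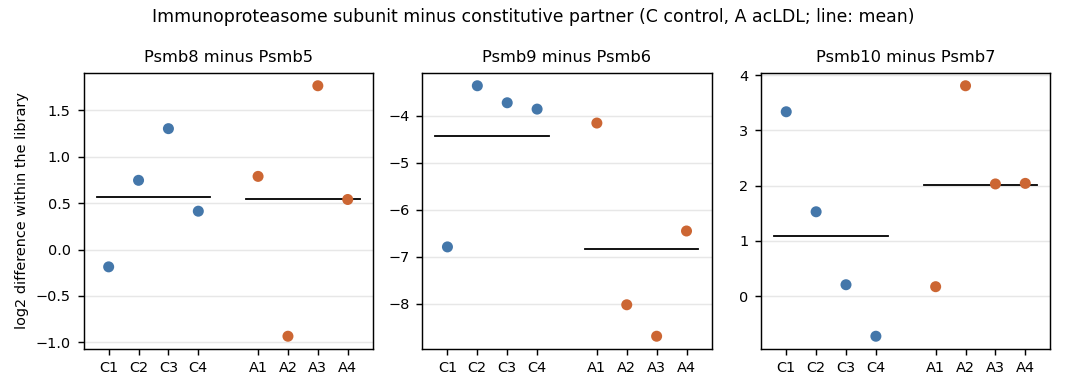
Each panel plots, per library, log2(signal + 5) of an immunoproteasome subunit minus that of its constitutive partner, for controls (C1 to C4, blue) and acLDL (A1 to A4, orange), with a line at each group's mean. The groups overlap in all 3 panels, and the widest gap between means is -2.40, for Psmb9 minus Psmb6.

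The rest of the proteasome was likewise mixed. Of 11 other subunits of the core particle, 3 had a higher and 8 a lower mean, 0 passed the threshold, and the median log2 fold change was -1.29. Psma7 was at 1835, 346, 577 and 536 with acLDL and 1600.2, 2357, 1543 and 1248 in controls (log2 fold change -1.29). Psmb1 was at 4689.7, 10471, 12360.0 and 9345 against 6484, 4681, 4936 and 4628 (0.76), so 2 subunits of one particle had fold changes of opposite sign. Of 7 tested activators and assembly factors out of 9, 3 were higher and 4 lower with 0 past the threshold (median -0.68). Pomp, which helps new core particles to form, had a log2 fold change of 1.02, and the assembly chaperone Psmg1 one of -1.92. Psmg1 was listed at low values, 13.7, 0, 0 and 0 with acLDL and 17.4, 23.3, 18.5 and 26.8 in controls. Its groups did not overlap, which held for 5.64% of all tested genes in either direction.

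Chaperones that fold and load class I molecules had a median above 0. Of 8 tested, 5 had a higher and 3 a lower mean and 0 passed (median 0.24). The 2 with the smallest p went in opposite directions. Hspa5, the main chaperone of the endoplasmic reticulum, was at 868, 1414, 1364 and 852 with acLDL and 907, 601, 737 and 770.3 in controls (log2 fold change 0.55). P4hb, a disulfide isomerase, was at 163, 8.88, 12.5 and 38.1 against 61.1, 153, 174 and 117 (-1.75). Tapbp and P4hb were thus low in the libraries in which Hspa5 was at its highest.

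Other class I heavy chains and class I-like genes were mixed. Of 11 tested, out of 21 listed and 12 in the table, 4 means were higher and 7 lower with acLDL, 0 past the threshold (median -0.64, and 0.31 with the short-transcript covariate), beside lower means for 55.7% of all tested genes. H2-M2 was at 2489.6, 153, 66.8 and 772 with acLDL and 1038, 2696, 2940.4 and 3444 in controls. H2-T23, which encodes a nonclassical heavy chain, was listed at 125, 0, 6.31 and 5.20 against 9.94, 654, 189 and 209. H2-Q4, named after its values were seen, was at 483, 581, 1202 and 1606 against 562, 553, 571 and 532, a log2 fold change of 0.63 and so opposite in sign to H2-K1. Genes of this family share reads, and 10.1% of the end words of H2-K1 occur in H2-T23, so their levels are uncertain.

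Regulators of class I genes had a median of -0.57, with 5 of 19 higher, 14 lower and 0 past the threshold. Nlrc5, the transactivator of class I promoters, was listed at 41.6, 0, 0 and 15.7 with acLDL and 253, 21.2, 32.7 and 31.5 in controls (log2 fold change -2.15). Control library 1 thus had the highest Nlrc5 and the lowest control value of H2-K1, H2-D1, B2m, Tap1 and Tapbp. Irf1, an interferon-inducible transcription factor, was listed at 35.6, 0, 21.8 and 14.0 against 0, 70.2, 27.2 and 22.1 (-0.42). Irf2 was at 318, 283, 870.1 and 370.5 against 1159, 936, 428 and 727 (-0.88).

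Peptide trimming in the cytosol and traffic showed smaller medians. Of 7 cytosolic peptidases, 1 was higher and 6 lower with 0 past the threshold (median -0.35), and Lap3, a leucine aminopeptidase, had a log2 fold change of -0.50. Of 11 genes for traffic and cross-presentation, 5 were higher and 6 lower with 0 past the threshold (median -0.01). Sec61a1, a channel subunit of the endoplasmic reticulum, was at 53.2, 53.1, 78.2 and 39.7 with acLDL and 286, 418, 180.5 and 76.6 in controls. On the log2 scale the fold change was -1.80 (SE 0.49, limma's adjusted p = 0.298), and -2.05 with the short-transcript covariate. For Sec61a1, acLDL library 1 lay below every control, unlike for the class I genes. Bcap31, which moves class I molecules out of the endoplasmic reticulum, was at 332, 122, 120.5 and 132 against 213, 325, 338 and 371.

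**Figure D5:**
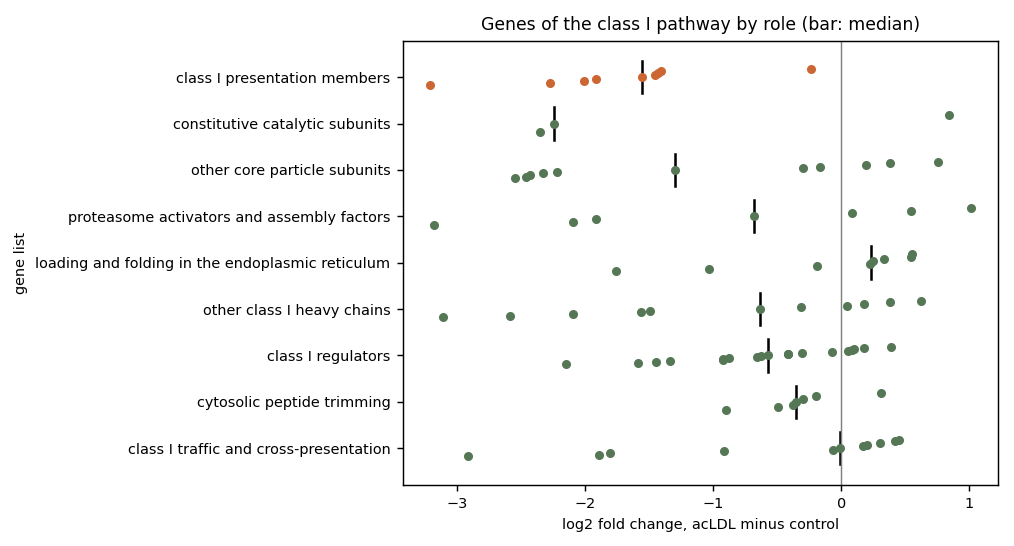
Each point is the log2 fold change, acLDL minus control, of 1 tested gene, in rows by role in the class I pathway, with a bar at the row's median. All 9 class I genes lie below 0, while every other row holds genes on both sides, with medians from -2.24 to 0.24.

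Markers of cell types moved between libraries as well. Itgax, the gene of CD11c, was at 189, 10.004 and 42.7 in acLDL libraries 1, 2 and 4 and listed at 0 in library 3, against 81.5 to 195 in controls, in the same order of acLDL libraries as H2-K1. The 6 granulocyte markers in the table, of 8 listed, had 1 higher and 5 lower means (median log2 fold change -2.18) and a summed signal from 473 to 10803 in acLDL libraries and from 5087 to 12699.9 in controls, with Ngp and Camp at 0 in some acLDL libraries. Of 7 macrophage and monocyte markers, 3 had higher and 4 lower means (median -0.94), among the lower ones Ccr2 (-0.94). Csf1r was the largest part of their sum, which was 8231 to 13064 in acLDL libraries against 7865 to 9835, with Adgre1, Cd68 and Ly6c2 at 0 in some acLDL libraries. Of 7 tested dendritic cell markers out of 8, 1 was higher (H2-Eb1) and 6 were lower (median -1.86), with Itgax, Flt3 and Zbtb46 at 0 in some libraries. Their sum, most of it H2-Eb1, ran from 31801 to 44580.1 and from 25359.5 to 29571. Of 4 tested type 1 dendritic cell markers, 1 was higher and 3 lower (median -0.23, sums 377 to 459 and 426 to 676), with Batf3 and Clec9a at 0 in some acLDL libraries. The 3 lymphocyte markers in the table, of 9 listed, had 3 higher and 0 lower means (median log2 fold change 1.12). They summed to 61.6 to 95.1 in acLDL libraries and 19.9 to 40.8 in controls, each marker at 0 in at least 1 library. The erythroid marker Hbb-bs, the 1 of 5 in the table, was at 54.1, 189.7, 65.0 and 79.2 with acLDL and 1429, 865, 345 and 164 in controls (log2 fold change -2.52, and -3.03 with the covariate), and did not follow the order of libraries of H2-K1. Of 3 plasmacytoid markers, Tcf4 is in the table, with a log2 fold change of -0.06. The part of these cell types in the class I differences was not tested.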

How the data were processed

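Poly(A) RNA of 4 acLDL and 4 control libraries was prepared with the QuantSeq V2 kit, which reads the 3′ end of messages, per the labels' protocols; where the design text speaks of the 5′ end, the kit was followed, and the shared-word percentages rest on that. bcl2fastq 2.20 and kallisto (version not given) were used with mm10 (GRCm38), per the submitters' processing notes. The authors' annotation, filters and scaling are not stated in the sources used here. The authors deposited a normalized signal per gene, in values that are not whole, with library totals between 3917430 and 4385050. Between 11.2% and 13.0% of low values lie on whole steps (tolerance 0.01 steps), so the step was not established as 1 read and reads were not recovered. Totals divided by the steps come to 3230790 to 5458310, which are not measured read depths. No counting interval was computed.

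Genes with a signal of at least 10 in at least 4 libraries were fitted with limma on log2(signal + 5), with a variance trend, robust moderation and the group as the only term. Fold changes on this scale understate those of low genes. Adjustment followed Benjamini and Hochberg over 10091 genes (threshold 0.05). The signal is not per length, so levels of different genes were not compared. Exceptions are the pair balances, which subtract genes within a library, and the marker sums, which add genes. The largest part of a sum is named for the macrophage and monocyte markers and the dendritic cell markers, and not for the other lists. Lengths and coordinates are from GENCODE mouse release 21, whose symbols matched 97% of tested genes. A gene without a coding transcript entered the index and the length classes by its longest transcript of any type. All 10 members are named, with the smallest-p genes of each related list, the constitutive catalytic subunits, Nlrc5, Irf1 and Itgax; 1 further gene that the rule takes is not reported here, and any other gene was named after its values were seen. Members and lists were chosen with earlier results of these data known. Alternatives were other scalings, pseudocounts and filters, a replicate block, libraries left out, array weights and the short-transcript covariate. R 4.3.3, limma 3.58.1 and Python 3.11.15 were used.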

Additional observations from a re-analysis of the deposited data

Results flagged for a closer look

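Control library 1 stood apart from the 3 other controls for several class I genes. Its log2(signal + 5) was the lowest of the controls, by a gap wider than Dixon's 95% limit for 4 values, for H2-K1 (8.97), H2-D1 (11.28), B2m (12.58), Tap1 (6.34) and Psmb9 (5.23). The same held for the balance of Psmb9 minus Psmb6, at -6.79. Of 24 groups of 4 checked, 6 were flagged, and chance flags about 1 in 20; the genes share libraries, so the flags are not independent. Without control library 1 the log2 fold change was -3.61 for H2-K1, -2.23 for H2-D1, -1.91 for B2m, -2.27 for Tap1 and -2.20 for Psmb9, and none passed limma's threshold.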

How the results depend on the processing

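Leaving out 1 library in turn gave 0 to 2190 called genes in all, 0 to 6 called members and 0 to 6 members without overlap between the groups; the highest of each came without acLDL library 1, and without control library 1 there were 4 members without overlap. Of all tested genes, 33% did not overlap in either direction without acLDL library 1 and 15.3% without control library 1. Array weights called 1957 genes and 5 members, and quantile normalization called 1 gene and no member. Psmb8 minus Psmb5 had no stable sign, from -0.44 to 0.46 with 1 library left out, at 0.43 with a pseudocount of 1 and at 0.10 without acLDL libraries 2 and 3. Psmb10 minus Psmb7 ran from 0.32 to 1.68 with 1 library left out, and was 1.58 with a pseudocount of 1, 0.38 with 20 and 0.020 without acLDL libraries 2 and 3; Psmb9 minus Psmb6 ran from -3.29 to -1.78, and was -0.87 without acLDL libraries 2 and 3. With 1 library left out, the exact permutation p of these 2 balances was never under 0.057. Erap1 turned to 0.17 after quantile normalization, which moved the median of all genes from -0.13 to 0.15. The short-transcript covariate turned H2-D1 (0.021), B2m (0.040), Tap1 (0.048), Psmb8 (0.31), Psmb9 (0.023) and Psmb10 (0.11). The causes were not tested. Tap1 has no value with the filter of 10 in all libraries. The replicate block called 0 genes and 0 members (smallest adjusted p = 0.483); same-numbered libraries deviated from their group means with correlations of -0.55, -0.21, -0.28 and 0.03, so the numbers do not pair them. The 9 genes kept a lower mean under the other scaling, the other pseudocounts, no filter and each library left out.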
